A study of Mus musculus with 4 samples.

Results

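Complement and coagulation genes were examined as 1 group of 38 genes, made up of 18 genes of the complement system and 20 genes of blood clotting and its control, out of 37074 gene names on the array. The 38 were chosen by symbol, by a rule that uses no measured value, although earlier results of these data were known. Each was read from the non-control probes that carry its name in the array files. They are represented by 58 probes. There is 1 probe for 24 of the genes and there are up to 5 probes for each of the other 14, and the brightest probe, by its mean log2 signal over the arrays, stands for the gene. The brightest probe of all 38 genes was well above background on all 4 arrays.

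The arrays measured liver RNA of C57BL/6 wild-type mice in 4 groups, to find what aristolochic acid I (AAI), a nephrotoxic plant compound, changes in the liver of each sex. Female mice received AAI at 5 mg/kg/day and male mice at 2 mg/kg/day, as intraperitoneal injections on 5 days of each week over 3 weeks, and 1 group of each sex received the corn oil vehicle on the same schedule. The labels give an age of 6 weeks for every group. RNA of 5 mice per group was pooled in equal amounts and hybridized to 1 single-color array, and all 4 arrays lay on 1 slide. The pool averaged the mice before the measurement, so that no spread between animals was measured and no test could be made. Array and group cannot be told apart, and neither can sex and dose, since the sexes were given different doses.

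The complement system is a cascade of plasma proteins that coats and lyses cells, and the liver makes most of them. Its classical pathway starts with C1q, its lectin pathway with mannose-binding lectins, and its alternative pathway with C3 itself, and all of them end in the membrane attack complex, which is assembled from C5, C6, C7, C8 and C9. Hepatocytes also make most clotting factors, the 3 fibrinogen chains and the plasma inhibitors of clotting, while C1q and properdin come mainly from macrophages and other myeloid cells.

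Signals are given as log2 of the processed intensity after quantile normalization over the 4 arrays. A log2 ratio compares the AAI-treated with the corn oil-treated group within a sex, and a log2 ratio of 1 is a fold of 2. A gene was counted as lower or higher when the signals differed at least 2-fold. No error between mice was measured, and technical error was read from the arrays in the form of repeated spots and of different probes with the same gene name. Repeated spots of 1 probe had a median SD of 0.0451 to 0.0845 in log2 signal on the 4 arrays. The wider measure, the SD of log2 ratios between different probes of a gene, was used throughout and had a median of 0.251 in females and 0.238 in males, and 0.234 for the difference between the corn oil-treated sexes, over 9108, 8601 and 8875 genes with 2 or more probes, and it is called the SD between probes in what follows. In bulk liver RNA, fewer cells of a type and less RNA per cell cannot be told apart.

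In AAI-treated females, 5 of the 38 genes were at least 2-fold lower and 0 were at least 2-fold higher, where 3.07% and 1.34% of all 31636 genes measured were. The 5 were C1qa, C1qb, C1qc, C6 and C9. In AAI-treated males, 4 were at least 2-fold lower and 0 were higher, against 4.56% and 3.47% of 30489 genes, and the 4 were C6, C8a, C8b and C9. Between the corn oil-treated groups, 5 genes were at least 2-fold higher in males and 0 in females, against 3.81% and 1.84% of 30846 genes, and these were C6, C8a, C8b, C9 and Hc. The ratio in males and the difference between the corn oil-treated sexes share the array of corn oil-treated males, so that they are not independent of each other.

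The remaining genes differed by less than 2-fold. The median log2 ratio of the 38 genes was 0.03 in females and -0.38 in males, where that of all genes was 0.04 and 0.00. The log2 ratio was below 0 for 18 of 38 genes in females and for 29 of 38 in males, against 44.8% and 48.4% of all genes. Among the 31 genes other than C6, C8a, C8b, C9 and the 3 C1q chains, the median was 0.13 in females and -0.36 in males. In males 25 of 38 lay below 0 by more than the SD between probes and 7 lay above 0 by more. These values depended on the scaling, and when the arrays were instead only scaled to their 75th percentiles, the median in males was -0.16 and 17 genes lay that far below 0. The share of all genes beyond the SD between probes was not determined, so counts beyond it, here and below, have no baseline.

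**Figure D1:**
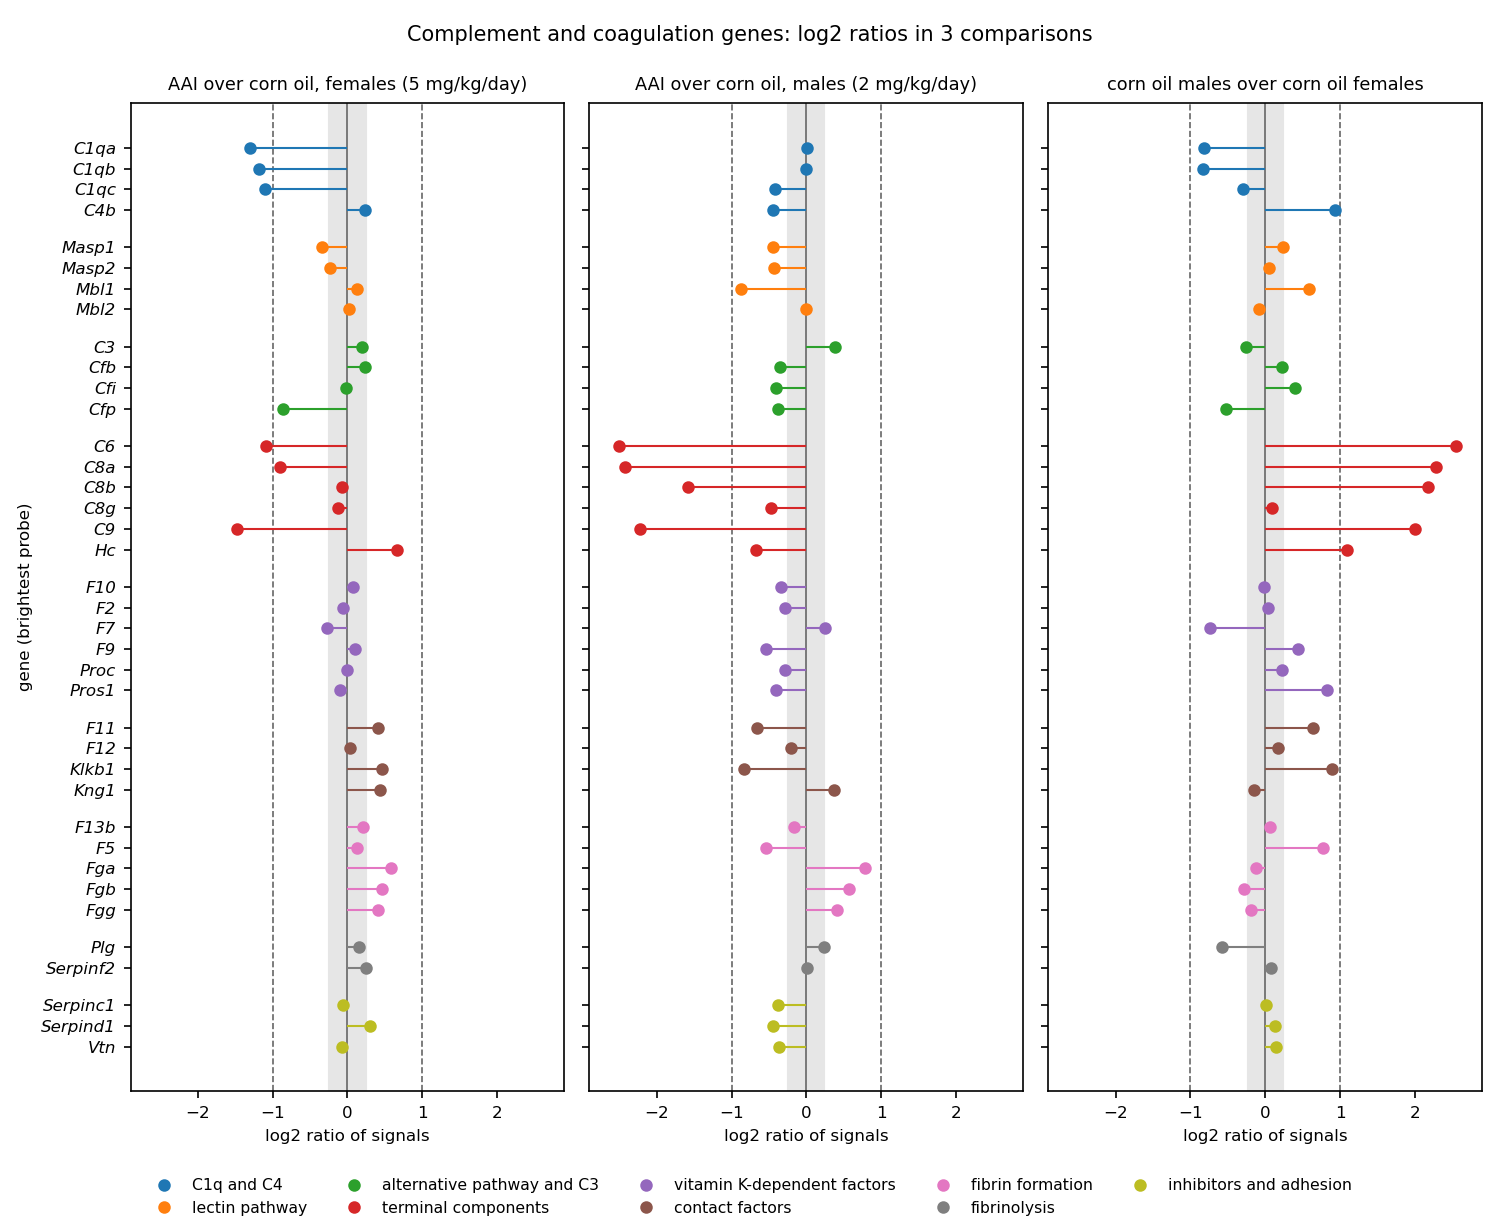
Log2 ratios of the 38 genes, 1 point per gene from its brightest probe, for AAI over corn oil in females (left), AAI over corn oil in males (middle) and corn oil-treated males over corn oil-treated females (right), colored by role. Dashed lines mark 2-fold and the grey band marks the median SD between probes of 1 gene in that comparison (0.251, 0.238 and 0.234). C6, C8a, C8b and C9 reach from -1.59 to -2.50 in the middle panel and from 2.00 to 2.55 in the right one.

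The largest differences were those of the terminal components, which build the membrane attack complex. C6, which binds to C5b and starts the assembly, had a log2 signal of 8.70 in females on corn oil and 7.62 in females on AAI, and of 11.25 and 8.75 in the male groups. It was 2.13-fold lower with AAI in females and 5.67-fold lower in males, and corn oil-treated males were 5.85-fold above corn oil-treated females. The signal of AAI-treated males thus lay at that of corn oil-treated females, at 8.75 and 8.70. C9, the subunit that polymerizes into the pore, was at 14.92 and 13.45 in corn oil-treated and AAI-treated females and at 16.92 and 14.69 in males. This was 2.77-fold lower in females, 4.68-fold lower in males and 4.0-fold higher in corn oil-treated males than in corn oil-treated females. As with C6, the corn oil-treated males stood above the other 3 groups, and AAI-treated females were the lowest. C6 and C9 have 1 probe each, so no second probe checks these differences. C6 was also the dimmest of the 38 genes, with a mean log2 signal of 9.08.

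C8 is made of 3 chains from separate genes. The alpha chain gene C8a had signals of 12.31 and 11.40 in corn oil-treated and AAI-treated females and of 14.59 and 12.18 in males, with log2 ratios of -0.90 and -2.42. Its second probe gave -1.15 in females and -2.17 in males. The beta chain gene C8b was at 11.95 and 11.87 in females and at 14.13 and 12.54 in males, with log2 ratios of -0.07 and -1.59, and its second probe gave 0.23 and -1.21. Corn oil-treated males exceeded corn oil-treated females by 2.29 on the log2 scale for C8a and by 2.18 for C8b, and by 2.08 and 1.93 on the second probes. C8a and C8b were therefore lower in AAI-treated males on both probes, and in females C8a was lower on both while C8b lay within the SD between probes. The gamma chain gene C8g, a lipocalin that is encoded elsewhere and is not needed for the pore, had signals of 17.31 and 17.19 in corn oil-treated and AAI-treated females and of 17.39 and 16.92 in males. Its log2 ratio was -0.12 in females and -0.47 in males, and the corn oil-treated sexes differed by 0.09, which is less than the SD between probes.

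Hc, the gene of C5 in the mouse, ran in opposite directions in the sexes on its 1 probe. In females its signal was 12.75 with corn oil and 13.41 with AAI, a log2 ratio of 0.66, and in males it was 13.84 with corn oil and 13.17 with AAI, a log2 ratio of -0.67. Corn oil-treated males were 2.13-fold higher than corn oil-treated females, and the signals of both AAI-treated groups lay between those of the corn oil-treated groups. The log2 ratio in males minus that in females was -1.33 for Hc, -1.41 for C6, -1.52 for C8a, -1.51 for C8b, -0.76 for C9 and -0.35 for C8g. The difference between the sexes was not tested. All 6 genes had log2 ratios beyond the SD between probes in males, all below 0, with a median of -1.91, and in females 5 of 6 were below 0, with a median of -0.51.

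**Figure D2:**
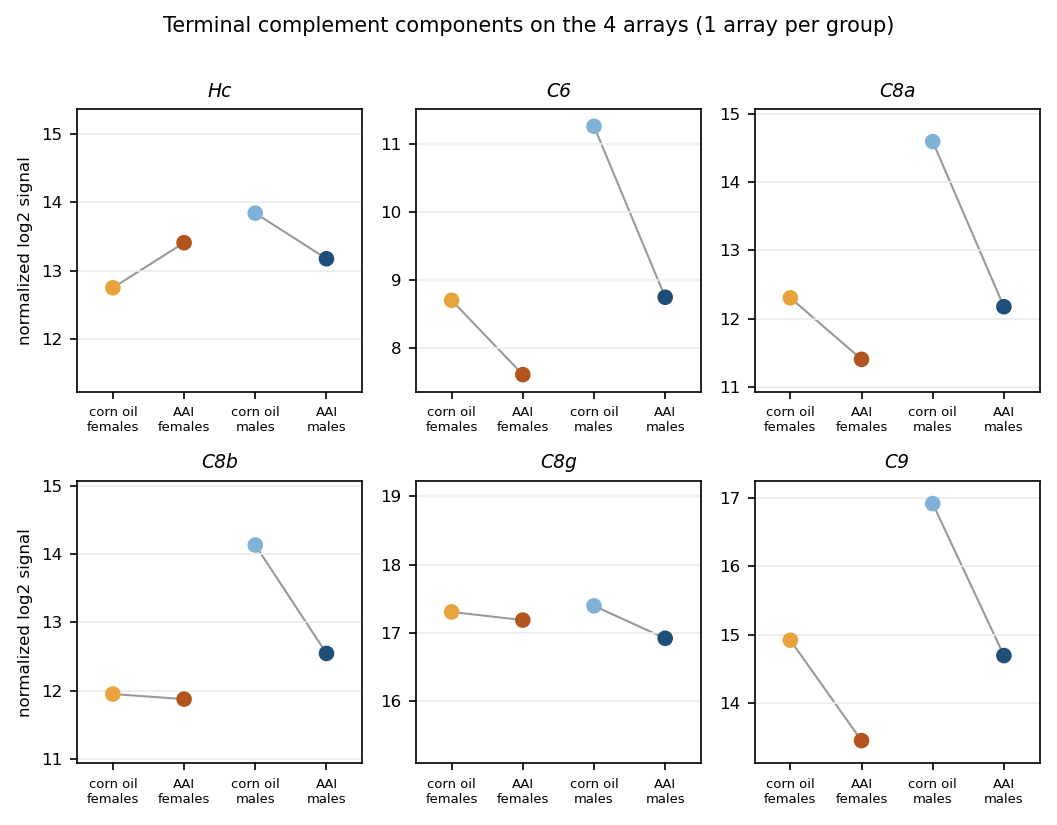
Normalized log2 signal of the 6 terminal components in the 4 groups, 1 pooled array per group, with no error bars because there are no replicates. Every panel spans the same number of log2 units, with its own position, since levels of different probes are not comparable. Corn oil-treated males were the highest group for all 6 genes, and C8g had the narrowest range of the 6, from 16.92 to 17.39.

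The probes of C8a and C8b lie side by side on chromosome 4 of mouse genome build mm9, at chr4:104488479-104488538 and chr4:104477094-104477153, and those of C6 and C9 are both on chromosome 15, at chr15:4689842-4705241 and chr15:6447161-6448472, as the array files give them. Their position in exons or introns was not determined, because no annotation of mm9 was used here. Of the 8 other genes with a probe within 1 Mb of C8a and C8b, 0 were past 2-fold in either sex or between the corn oil-treated sexes, and their log2 ratios in males ranged from -0.47 to 0.29. Around C6 and C9, 36 other genes were measured in males, of which 6 were at least 2-fold lower and 1 was higher, with a median of -0.19. The change at C8a and C8b was not shared by their neighbors, while 6 of 36 genes near C6 and C9 were also lower in males, against 4.56% of all genes. Near C6 and C9 in females, 2 of 35 were at least 2-fold lower and 0 higher, against 3.07% and 1.34%. Between the corn oil-treated sexes, 5 of 36 were at least 2-fold higher in males and 2 were lower, against 3.81% and 1.84%.

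Promoters are shown for C6, C8a, C8b and C9, which had the largest differences in males and between the corn oil-treated sexes. In females C8b did not follow the other 3. Hc, the fifth terminal gene higher in corn oil-treated males, had smaller differences and is not shown. Its promoter, like that of C8b, had no match to the motifs. The 4 promoters are RefSeq sequences of build GRCm38.p6, from 250 bases before to 50 bases after the start site, written 5′ to 3′ on the strand of the gene. C6 is chr15:4726960-4727259 on the plus strand, C8a is chr4:104876349-104876648 on the minus strand, C8b is chr4:104766067-104766366 on the plus strand and C9 is chr15:6445096-6445395 on the plus strand. Capitals mark matches, on either strand, to TTCNNNGAA (a STAT element), CTGGGAA (the interleukin-6 response element of acute-phase genes) or TTGCNNAA (a C/EBP site).
C6: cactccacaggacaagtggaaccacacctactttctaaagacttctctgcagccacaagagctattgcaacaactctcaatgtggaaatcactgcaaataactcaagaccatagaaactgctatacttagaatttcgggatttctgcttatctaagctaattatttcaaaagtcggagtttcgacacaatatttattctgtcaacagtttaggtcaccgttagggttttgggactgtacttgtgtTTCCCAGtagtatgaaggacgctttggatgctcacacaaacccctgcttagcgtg
C8a: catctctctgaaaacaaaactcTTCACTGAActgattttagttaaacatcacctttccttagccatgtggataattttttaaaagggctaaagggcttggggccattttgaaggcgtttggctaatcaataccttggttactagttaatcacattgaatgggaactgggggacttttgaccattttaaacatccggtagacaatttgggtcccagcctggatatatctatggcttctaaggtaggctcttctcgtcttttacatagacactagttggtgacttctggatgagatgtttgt
C8b: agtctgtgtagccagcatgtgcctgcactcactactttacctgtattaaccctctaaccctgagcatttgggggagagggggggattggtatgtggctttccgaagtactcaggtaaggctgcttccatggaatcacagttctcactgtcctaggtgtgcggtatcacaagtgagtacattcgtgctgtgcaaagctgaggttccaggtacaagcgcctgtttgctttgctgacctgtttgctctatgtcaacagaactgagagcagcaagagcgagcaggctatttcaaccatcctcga
C9: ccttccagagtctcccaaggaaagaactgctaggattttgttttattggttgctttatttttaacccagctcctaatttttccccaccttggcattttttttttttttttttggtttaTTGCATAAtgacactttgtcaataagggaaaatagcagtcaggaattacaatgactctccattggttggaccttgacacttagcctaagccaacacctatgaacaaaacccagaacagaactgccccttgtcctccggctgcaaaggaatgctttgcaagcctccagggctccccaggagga

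The 4 promoters did not share a match. C6 had CTGGGAA on the reverse strand, from 5 bases before the start site, C8a had a STAT element 228 bases before it, C9 had a C/EBP site 132 bases before it, and C8b had none of these in the window. Over all 32851 promoters of the same length, 8.3% held the STAT element, 11.1% held CTGGGAA and 10.8% held the C/EBP site. Entries were found for 30 of the 38 genes, with 31 promoters, of which 7 held the STAT element, 6 held CTGGGAA and 8 held the C/EBP site. A STAT element that reads TTCCCAGAA also contains CTGGGAA on the other strand, as in F9 and Masp2, so that these counts overlap. A match is a description of the letters and not of binding.

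C1q opens the classical pathway when it binds immune complexes or dying cells, and it is built from the products of C1qa, C1qb and C1qc, which lie together on chromosome 4. All of them were lower in AAI-treated females. C1qa had signals of 12.26 and 10.96 in corn oil-treated and AAI-treated females, against 11.43 and 11.44 in males, so that it was 2.46-fold lower in females and had a log2 ratio of 0.01 in males. C1qb was at 12.28 and 11.10 in females, which is 2.26-fold lower, and at 11.44 in both male groups. C1qc was at 13.20 and 12.10 in females, which is 2.15-fold lower, and at 12.91 and 12.49 in males, a log2 ratio of -0.42. In the same order of chains, corn oil-treated males minus corn oil-treated females gave -0.82, -0.84 and -0.30 on the log2 scale. AAI-treated females therefore had the lowest signal of the 4 groups for all 3 chains, and corn oil-treated females the highest. The second C1qc probe was well above background on 1 array and gives no ratio to compare.

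Markers of Kupffer cells, the macrophages of the liver sinusoids, differed along with C1q. Of 11 such genes, 7 were at least 2-fold lower in AAI-treated females, with a median log2 ratio of -1.33, and 3 in AAI-treated males, with a median of -0.89. In males the count was 1 with 75th percentile scaling, and the median was -0.34 with the mean of all probes of a gene. The defining markers Clec4f and Timd4 had log2 ratios of -1.40 and -1.55 in females and of -0.89 and -1.14 in males, Csf1r, the receptor that macrophages need to survive, had -1.33 and -0.998 on its brightest probe but 0.22 and -0.72 on its second, and the scavenger receptor Marco had 0.05 and 0.09. The log2 of their summed signal was 17.24 and 16.15 in corn oil-treated and AAI-treated females and 17.08 and 16.48 in males, and all 11 were well above background on every array. Kupffer cell markers were thus lower in both sexes, whereas C1qa and C1qb were lower in females and level in males. Of the other 49 genes measured within 1 Mb of the C1q genes in females, 1 was at least 2-fold lower and 0 were higher. The part of Kupffer cell number in the C1q result was not tested.

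**Figure D3:**
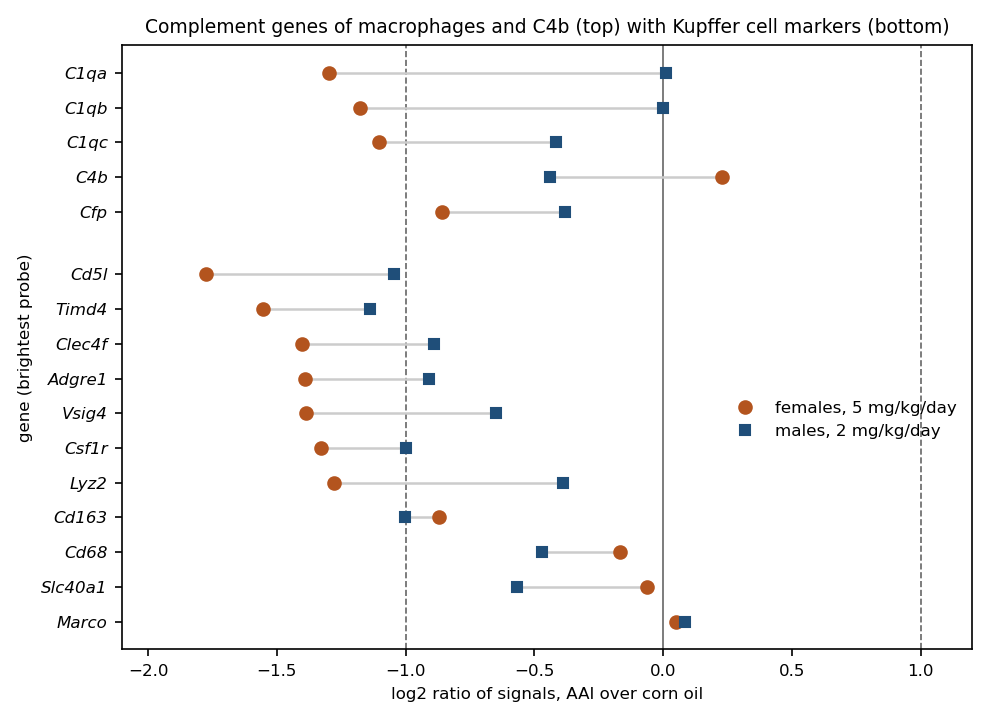
Log2 ratio of AAI over corn oil in females (circles) and males (squares) for the C1q chains, properdin (Cfp) and C4b, and for 11 markers of Kupffer cells and macrophages, from 1 pooled array per group. Dashed lines mark 2-fold. The 3 C1q chains lie between -1.10 and -1.30 in females and between -0.42 and 0.01 in males, and the Kupffer cell markers reach -1.77 in females and -1.14 in males.

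Properdin, encoded by Cfp, stabilizes the alternative pathway convertase and is released mainly by myeloid cells. Its signals were 13.35 and 12.49 in corn oil-treated and AAI-treated females and 12.83 and 12.44 in males, with log2 ratios of -0.86 and -0.38, and its second probe gave -0.89 and -0.19. Cfp was thus lower in females on both probes, by less than 2-fold. C4b, which is made by hepatocytes and is cleaved by C1s in the step after C1q, had signals of 15.17 and 15.40 in females and 16.10 and 15.66 in males. Its log2 ratio was 0.23 in females and -0.44 in males, and corn oil-treated males exceeded corn oil-treated females by 0.93. The second probe gave 0.11, -0.07 and 0.45, and 75th percentile scaling gave -0.13 in males, so that the difference in males rests on 1 probe and on the normalization. C4b and C4a are close copies, so that probes for 1 of them may also bind the other transcript.

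None of the lectin pathway genes, nor C3, Cfb and Cfi of the alternative pathway, reached 2-fold in either sex. Mbl1, a mannose-binding lectin, was at 13.18 and 13.31 in females and at 13.76 and 12.88 in males, with log2 ratios of 0.14 and -0.88. In males it passed 2-fold under 2 of 7 other ways of processing the arrays. Mbl2, the other mannose-binding lectin, had log2 ratios of 0.02 in females and -0.01 in males. Without the trend correction it was at 0.36 in females, beyond the SD between probes. With 75th percentile scaling it was at 0.20 in males, within that SD. Masp2, the protease that cleaves C4 and C2 for these lectins, had log2 ratios of -0.23 and -0.43, and another of its probes gave 0.59 in females. For Masp1, the related protease, the brightest probe gave -0.34 in females and the second probe 0.45. The direction of both proteases in females thus depended on the probe.

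C3, the central component that all pathways cleave, had signals of 18.69 and 18.89 in corn oil-treated and AAI-treated females and 18.43 and 18.81 in males. Its log2 ratio was 0.20 in females, within the SD between probes, and 0.38 in males, with 0.20 and 0.34 on the second probe. In males C3 was the single one of the 18 complement genes above 0 by more than the SD between probes, where 14 of 18 were below by more. Cfb, the protease of the alternative convertase, had log2 ratios of 0.23 and -0.35, and Cfi, the protease that inactivates C3b, had -0.02 and -0.41. With 75th percentile scaling Cfb and Cfi were at -0.12 and -0.11 in males, within the SD between probes. The count of 14 of 18 thus depended on the scaling.

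Among the coagulation genes, 0 of 20 reached 2-fold in any of the comparisons. Their log2 ratios ranged from -0.27 to 0.58 in females, with a median of 0.14, and from -0.83 to 0.79 in males, with a median of -0.29. In females 8 of 20 were above 0 by more than the SD between probes and 1 was below by more, and in males 6 were above and 11 below.

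The genes of the 3 fibrinogen chains, which form the fibrin of a clot, were higher with AAI in both sexes. Fga, the alpha chain, had signals of 13.53 and 14.11 in corn oil-treated and AAI-treated females and 13.41 and 14.20 in males, that is 1.5-fold and 1.72-fold higher. Fgb, the beta chain, had 18.15 and 18.62 in females and 17.88 and 18.45 in males, that is 1.38-fold and 1.49-fold higher. Fgg, the gamma chain, had 18.41 and 18.81 in females and 18.22 and 18.62 in males, or 1.32-fold and 1.33-fold higher. All 6 log2 ratios, from 0.41 to 0.79, exceeded the SD between probes, and they were above 0 under each of the 7 alternatives. The second Fga probe, which was also well above background on all arrays, gave 0.19 in females and -0.00 in males, so that the difference in Fga rests on 1 of its 2 probes. Of the 19 other genes measured in males within 1 Mb of the fibrinogen genes, which lie together on chromosome 3, 2 were at least 2-fold lower and 1 was higher.

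Fibrinogen is an acute-phase protein, whose genes are switched on in hepatocytes by interleukin-6. Of 13 other acute-phase genes, 1 was at least 2-fold higher and 2 were lower in females, with a median log2 ratio of 0.18, and 4 were higher and 0 were lower in males, with a median of 0.54. Apcs, serum amyloid P, was at 1.21 and 1.85 in females and males, whereas Saa1, serum amyloid A, was at -0.79 and 2.86. Apcs was thus higher in both sexes, while Saa1 was higher in males and lower in females, as was Saa2, at 2.97 and -1.18. The 5 genes listed for interleukin-6 signaling did not move together. Their median log2 ratio was -0.17 in females, where 3 of 5 were below 0, and 0.15 in males. Socs3, a feedback inhibitor, was the highest of them at 1.07 and 1.2, and the receptor gene Il6ra was at -0.88 and 0.05.

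The 3 fibrinogen promoters are shown for the same motifs, since these genes had higher signals with AAI in both sexes. On build GRCm38.p6, Fga is chr3:83025903-83026202 on the plus strand, Fgb is chr3:83049814-83050113 on the minus strand and Fgg is chr3:83007474-83007773 on the plus strand, with capitals for matches as above.
Fga: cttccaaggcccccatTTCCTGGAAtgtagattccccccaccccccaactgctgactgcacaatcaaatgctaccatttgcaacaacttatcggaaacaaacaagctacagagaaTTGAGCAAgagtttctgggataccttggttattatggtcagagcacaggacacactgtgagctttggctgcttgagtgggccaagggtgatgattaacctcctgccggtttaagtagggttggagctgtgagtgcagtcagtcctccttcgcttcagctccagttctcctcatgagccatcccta
Fgb: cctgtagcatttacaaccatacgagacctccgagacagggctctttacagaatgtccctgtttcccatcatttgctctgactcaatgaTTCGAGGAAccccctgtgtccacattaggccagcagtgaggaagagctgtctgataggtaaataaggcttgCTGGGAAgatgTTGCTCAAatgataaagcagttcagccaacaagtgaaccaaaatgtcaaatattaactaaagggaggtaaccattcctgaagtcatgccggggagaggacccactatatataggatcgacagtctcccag
Fgg: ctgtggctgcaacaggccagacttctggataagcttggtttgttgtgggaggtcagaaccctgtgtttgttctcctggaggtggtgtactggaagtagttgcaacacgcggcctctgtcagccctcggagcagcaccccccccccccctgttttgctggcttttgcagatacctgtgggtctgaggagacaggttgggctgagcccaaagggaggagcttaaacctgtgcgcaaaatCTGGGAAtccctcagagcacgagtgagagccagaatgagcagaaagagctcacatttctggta

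Fgb held all 3 motifs, with the STAT element from 162, CTGGGAA from 91 and the C/EBP site from 80 bases before the start site. Fga held a STAT element from 234 and a C/EBP site from 135 bases before it, and Fgg held CTGGGAA from 13 bases before it. Each of the 3 promoters thus had at least 1 match, and no motif was present in all of them.

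The contact factors, which start clotting on charged surfaces, divided in males. Kng1, the kininogen that carries prekallikrein and releases bradykinin, had signals of 17.81 and 18.25 in corn oil-treated and AAI-treated females and 17.66 and 18.03 in males, with log2 ratios of 0.44 and 0.37. Its other probes gave 0.66 and 0.80 in females and 0.54 and 0.05 in males. Kng2 is a close copy of Kng1, and its probe gave 0.41 and 0.29, so that signal may be shared between them. Klkb1, prekallikrein, was at 12.90 and 13.36 in females and at 13.79 and 12.96 in males, with log2 ratios of 0.46 and -0.83, and F11, factor XI, was at 10.42 and 10.82 in females and at 11.06 and 10.39 in males, with 0.41 and -0.67. Both were therefore higher in AAI-treated females and lower in AAI-treated males, as was Hc, and corn oil-treated males exceeded corn oil-treated females by 0.89 and 0.64. F12, factor XII, was within the SD between probes in both sexes, with 0.04 and -0.21.

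**Figure D4:**
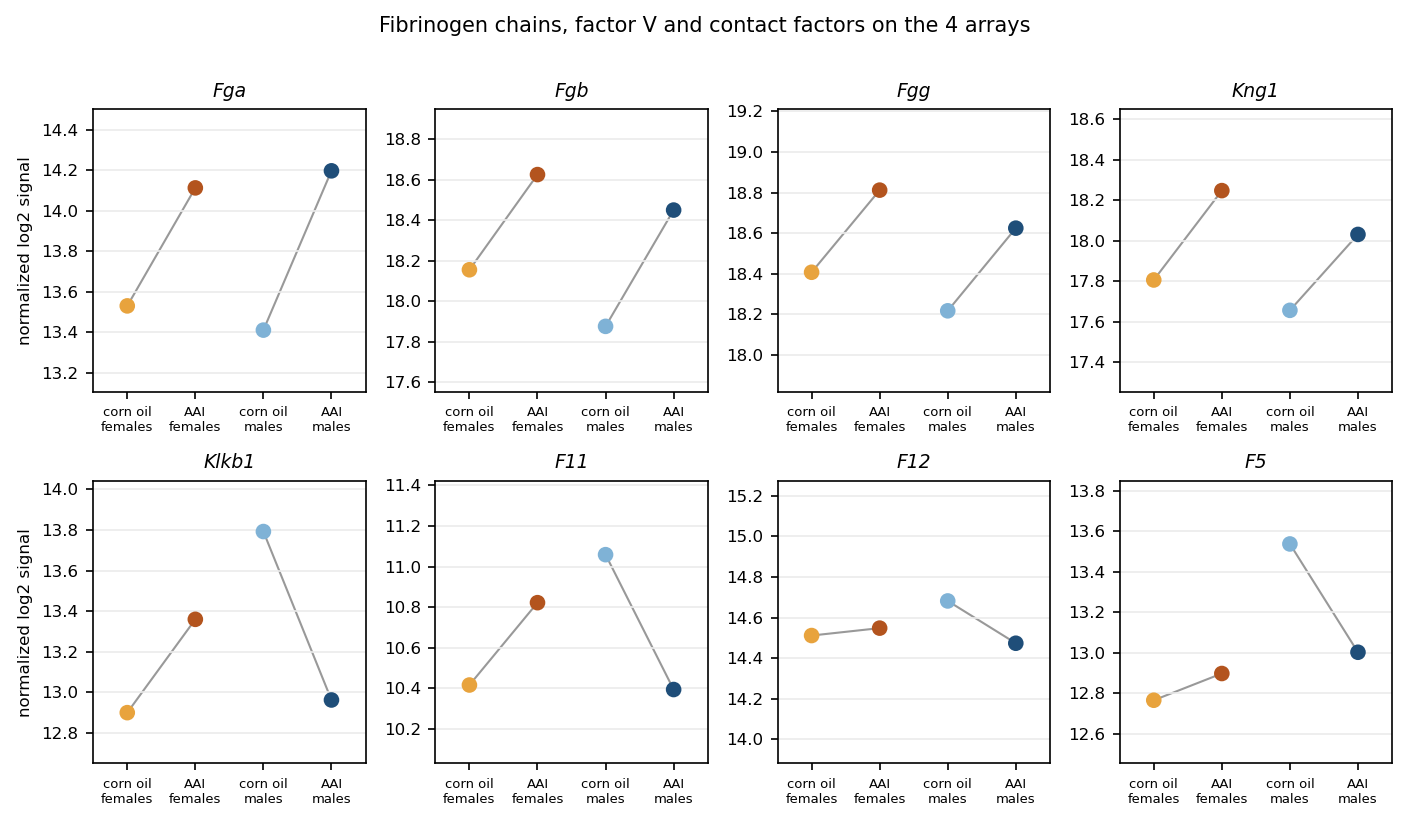
Normalized log2 signal of the 3 fibrinogen chains, factor V (F5) and the 4 contact factors in the 4 groups, 1 pooled array per group and no error bars. All panels span the same number of log2 units. The fibrinogen chains and Kng1 were higher with AAI in both sexes, with log2 ratios from 0.37 to 0.79, and Klkb1 and F11 were higher in AAI-treated females but lower in AAI-treated males.

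The vitamin K-dependent factors, whose proteins are carboxylated before secretion, had log2 ratios from -0.27 to 0.10 in females and from -0.53 to 0.25 in males. In males 5 of 6 lay below 0 by more than the SD between probes, and they were F2 (prothrombin), F9, F10, Proc (protein C) and Pros1 (protein S). With 75th percentile scaling 2 of 6 did, F9 and Pros1. F7, factor VII, differed from them. Its signals were 11.55 and 11.29 in corn oil-treated and AAI-treated females and 10.82 and 11.06 in males, so that the log2 ratio was -0.27 in females and 0.25 in males, each only just beyond the SD between probes. It was also the coagulation gene with the lowest signal in corn oil-treated males relative to corn oil-treated females, at -0.74. F9 had the lowest ratio of the 6 in males, -0.53, and 0.10 in females. Pros1 was 0.83 higher in corn oil-treated males than in corn oil-treated females, and 0.58 and 0.34 higher on its other probes. With AAI in males its log2 ratio was -0.40, and -0.18 and -0.30 on the other probes. The value of -0.18 lies within the SD between probes.

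Factor V, the cofactor of the prothrombinase and the product of F5, had log2 ratios of 0.13 in females and -0.53 in males, and F13b, the carrier subunit of the transglutaminase that crosslinks fibrin, had 0.21 and -0.17. The clotting inhibitor genes Serpinc1 and Serpind1 and the adhesion protein gene Vtn were also below 0 in males. Serpinc1, antithrombin, had log2 ratios of -0.06 in females and -0.38 in males, with 0.12 and -0.18 on its second probe. Serpind1, heparin cofactor II, had 0.31 and -0.45, and Vtn, vitronectin, had -0.07 and -0.36. With 75th percentile scaling Serpinc1 was at -0.20 and Vtn at -0.19 in males, within the SD between probes. Plg, plasminogen, and Serpinf2, the antiplasmin that blocks plasmin, were at 0.15 and 0.25 in females and 0.24 and 0.02 in males. Plasminogen was lower in corn oil-treated males than in corn oil-treated females, by -0.58, and its second, dimmer probe gave -0.27 and -0.17 in females and males, so that its direction depended on the probe.

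The other genes of the pathways on the array, which were listed by role, were mostly within 2-fold but lay on both sides of 0. Of 29 further complement genes, 9 lay above 0 by more than the SD between probes and 12 below in females. In males 3 lay above and 12 below. Of the 29, 1 was at least 2-fold higher and 1 lower in each sex, with medians of -0.03 in females and -0.05 in males. The higher one was Cfd, adipsin, the factor D protease that fat cells release, with signals of 5.86 and 9.37 in corn oil-treated and AAI-treated females and 11.10 and 15.01 in males. The lower ones were Vsig4, a complement receptor of Kupffer cells, at -1.39 in females, and Fcnb, ficolin B, at -1.11 in males. C7, the terminal component that follows C6, did not take part in the difference of its partners, with log2 ratios of 0.44 and 0.15 and 0.13 between the corn oil-treated sexes. C4bp, a regulator that binds C4b, was at 0.16 in females and -0.84 in males.

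Of 28 further coagulation genes, 25 were measured in females, with 1 higher and 2 lower, and 26 in males, with 1 higher and 1 lower. By more than the SD between probes, 6 lay above 0 and 4 below in females, and 11 above and 6 below in males. F13a1, the catalytic subunit of factor XIII, which is made by macrophages and megakaryocytes, had signals of 5.14 and 8.06 in corn oil-treated and AAI-treated females and 5.17 and 9.26 in males. Its log2 ratios of 2.92 and 4.09 stood against 0.21 and -0.17 for F13b, the subunit made by hepatocytes. A second F13a1 probe gave 0.50 and 1.06, so that the size of the difference rests on 1 probe. The lower genes were Tfpi, the inhibitor of the tissue factor pathway, at -1.18, with -0.85 and -0.28 on its other probes above background, and Procr, the endothelial protein C receptor, at -1.29 in females, neither of which reached 2-fold with normexp background correction, and Mug1, a protease inhibitor of the macroglobulin family, at -1.49 in males. Mug1 was also higher in corn oil-treated males than in corn oil-treated females, by 1.51.

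The labelled tissue was checked against markers. The 10 hepatocyte genes measured were well above background on all arrays, with log2 summed signals of 21.31 to 21.41 and median log2 ratios of 0.06 in females and -0.02 in males. Quantile normalization gives the brightest probes nearly the same values on every array. Alb, albumin, was at 19.12 in both female groups and in corn oil-treated males. These sums and ratios therefore cannot show whether the share of hepatocyte RNA differed between the pools. The 6 transcription factors of hepatocytes were not level. Their median log2 ratio was -0.42 in females, where 5 of 6 were below 0 and 2 were at least 2-fold lower, Onecut1 at -1.31 and Cebpb at -1.07, and -0.22 in males, where 0 were past 2-fold. Onecut1 was 1.65 higher in corn oil-treated males than in corn oil-treated females, and its second probe gave -0.49 in females and 1.18 between the corn oil-treated sexes. Genes of other tissues stood out in some pools. All 10 skeletal muscle genes were at least 2-fold higher in the AAI-treated pool of each sex, with log2 summed signals of 10.37 and 15.45 in corn oil-treated and AAI-treated females and 12.49 and 18.45 in males, and 8 of 10 were higher in corn oil-treated males than in corn oil-treated females. All 5 adrenal cortex genes, 4 of 5 brown fat genes and 3 of 5 adrenal medulla genes were at least 2-fold higher in AAI-treated males, and the adrenal cortex sum was 9.72, 9.85, 11.57 and 15.50 in the same order. Of 5 erythroid genes, 3 were at least 2-fold lower in AAI-treated males. Of 5 neutrophil and monocyte genes, 3 were at least 2-fold higher in AAI-treated males and 3 were lower in corn oil-treated males than in corn oil-treated females. The part of these tissues in the ratios of the complement and coagulation genes was not tested.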

How the data were processed

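Each of the 4 arrays holds pooled liver RNA of 1 group. The authors read the scans in Feature Extraction 10.5.1.1, and the deposited intensities per spot are linear and not normalized between arrays. Their table of the whole series also holds an intensity after quantile normalization, used here as an alternative only. The files carry mm9 coordinates.

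The log2 of the processed intensity was taken, control spots, outlier spots (70 to 234 per array) and 26 and 92 spots of 2 arrays whose processed value had been replaced by the background were left out, spots of a probe were averaged, and 56393 probes were quantile normalized. None of the spots left out belonged to a complement or coagulation gene, and none was saturated. A gene entered a comparison when its brightest probe was well above background on 1 of the 2 arrays. Precision is limited by having 1 array per group. Python 3.11.15, numpy 2.4.6, pandas 2.3.3, R 4.3.3 and limma 3.58.1 (normexp) were used. Quantile normalization and the log2 ratios were checked on simulated data in which as many genes were raised as lowered. That check cannot show how a skew toward lower genes affects the normalization, and it did not cover the other steps.

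The genes, lists and rules were chosen with earlier results of these data known. Every gene of the group may be named. All values are given for genes at 2-fold or with opposite signs in the sexes at 1.5-fold, and for examples of each role. The motif of HNF1 was also searched, and 0 of the promoters of these genes held it, against 3 of 32851.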

Additional observations from a re-analysis of the deposited data

Results flagged for a closer look

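For 5 of the 38 genes the log2 ratios of the sexes had opposite signs, each larger in size than the SD between probes, with 1 pooled array per group. The ratio in males minus the ratio in females was -1.33 for Hc, -1.29 for Klkb1, -1.07 for F11 and -0.76 for Serpind1, all of which were higher in AAI-treated females and lower in AAI-treated males. It was 0.51 for F7, which ran the other way. Each of the 5 genes has 1 probe on the array, so no second probe checks the sign. With normexp background correction F7 was at -0.21 in females, within the SD between probes. The difference between the sexes was not tested, and sex and dose cannot be told apart.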

How the results depend on the processing

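Each log2 ratio of the 38 genes, 114 in all, was recomputed under 7 alternatives, and 766 of 798 values moved by less than the SD between probes, 18 of the other 32 under 75th percentile scaling. No value past 2-fold changed direction, and 12 of 14 stayed past it throughout. The exceptions were C6 in females, -0.83 with normexp, and the corn oil-treated sex difference of Hc, 0.89 with 75th percentile scaling. C8a in females reached -1.03 with the mean of its probes and Mbl1 in males -1.08 without the trend correction. With 75th percentile scaling, the median difference between the corn oil-treated sexes was -0.12 in place of 0.11, and the median of the males minus females ratios was -0.07 in place of -0.29. The number of these genes past a fold of 1.5 was 8 of 38 in females and 9 of 38 in males. Over all genes it was 5610 of 31636 and 6343 of 30489. In females 0 of the 38 passed a fold of 3, and in males C6, C8a, C8b and C9 did, C8b only just. Over all genes, 1395 passed 2-fold in females and 2447 in males, against 460 and 1147 with normexp, 2495 and 4011 without a filter on dim probes, 5610 and 6343 at a fold of 1.5, and 341 and 964 at a fold of 3. In females 69.6% of these were lower, or 54.2% with 75th percentile scaling and 57.2% without the filter on dim probes. The causes were not tested. No paired analysis was possible because each group has 1 array and the labels give no replicate numbers. No array could be left out for the same reason.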
